A study of Bos taurus with 18 samples.

Results

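Cell cycle and proliferation genes were followed in liver biopsies of 18 multiparous Holstein cows taken 1 week after calving. The set was a list of 38 genes. A member was measured where a probe set of the array carried its symbol and no other symbol, and the brightest by mean over 18 arrays was used where there were several. On this rule 33 of the 38 genes were measured, among 18010 genes with a symbol of their own on the array. Of the other 5, CCNB2, NUSAP1 and MAD2L1 had probe sets that carried a further symbol as well and were not used, and TOP2A and TTK matched no symbol and were not analysed here. Only MCM4 had several probe sets.

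Control cows (n = 9) received total mixed rations based on corn and grass silage from 3 weeks before expected calving. Niacin cows (n = 9) received the same rations with NiaShure, a rumen-protected form of niacin (nicotinic acid), at 79 mg per kg body weight. Per the labels this dose corresponded to 47 mg per kg at the duodenum and to an estimated 31 mg per kg that could be absorbed. RNA of each cow was hybridised to its own Bovine Gene 1.0 ST array, and values are log2 expression after RMA, so a difference of 1 stands for a doubling. All 12 hepatocyte markers ranked at or above percentile 93.35 of all probe sets by mean value, and array medians lay between 5.57 and 5.72. Brightness of a probe set also depends on its probes, so levels are compared between cows and not between genes.

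Dividing cells copy their DNA in S phase and separate it in mitosis. Cyclins bind and activate cyclin-dependent kinases, which drive each step. The MCM helicase, loaded by CDC6, opens the DNA, and PCNA, ribonucleotide reductase and thymidylate synthase serve its copying. Aurora and Polo kinases, the spindle checkpoint and kinesin motors then act in mitosis. Most of these genes are transcribed mainly in cells that divide, which makes their level in a tissue a common readout of proliferation. Most hepatocytes of the adult liver are at rest and can re-enter the cycle after loss of tissue, and resident or arriving blood cells can divide there too. In a biopsy, fewer dividing cells and less of a transcript per cell cannot be told apart.

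Of the 33 measured genes, 29 passed a filter that left out the 25% of probe sets with the lowest mean over all 18 arrays. BUB1B, NCAPG, CENPE and KIF11 lay below it, at means of 3.92, 3.72, 3.79 and 4.20 against a limit of 4.35. They received no test in the main comparison, and only an alternative fit without the filter took in all 33 measured genes. CDK1, at 4.35, lay just above the limit.

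The cows differed widely in these genes. The mean over the 29 tested members ran from 5.42 in niacin 15 to 6.36 in control 16, which is a 1.92-fold range. Control cows had a lowest value of 5.45, a median of 5.59 and a highest of 6.36. Niacin cows had a lowest value of 5.42, a median of 5.61 and a highest of 6.21. Cows of both groups stood at both ends of the order. The 7 highest were control 16 (6.36), niacin 19 (6.21), niacin 3 (6.13), control 1 (6.08), niacin 33 (6.04), control 20 (5.91) and control 11 (5.86). Below them came the widest gap between neighbouring cows, 0.24, and the other 11 cows (5 control and 6 niacin) lay between 5.42 and 5.62. The second widest gap was 0.15.

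**Figure D1:**
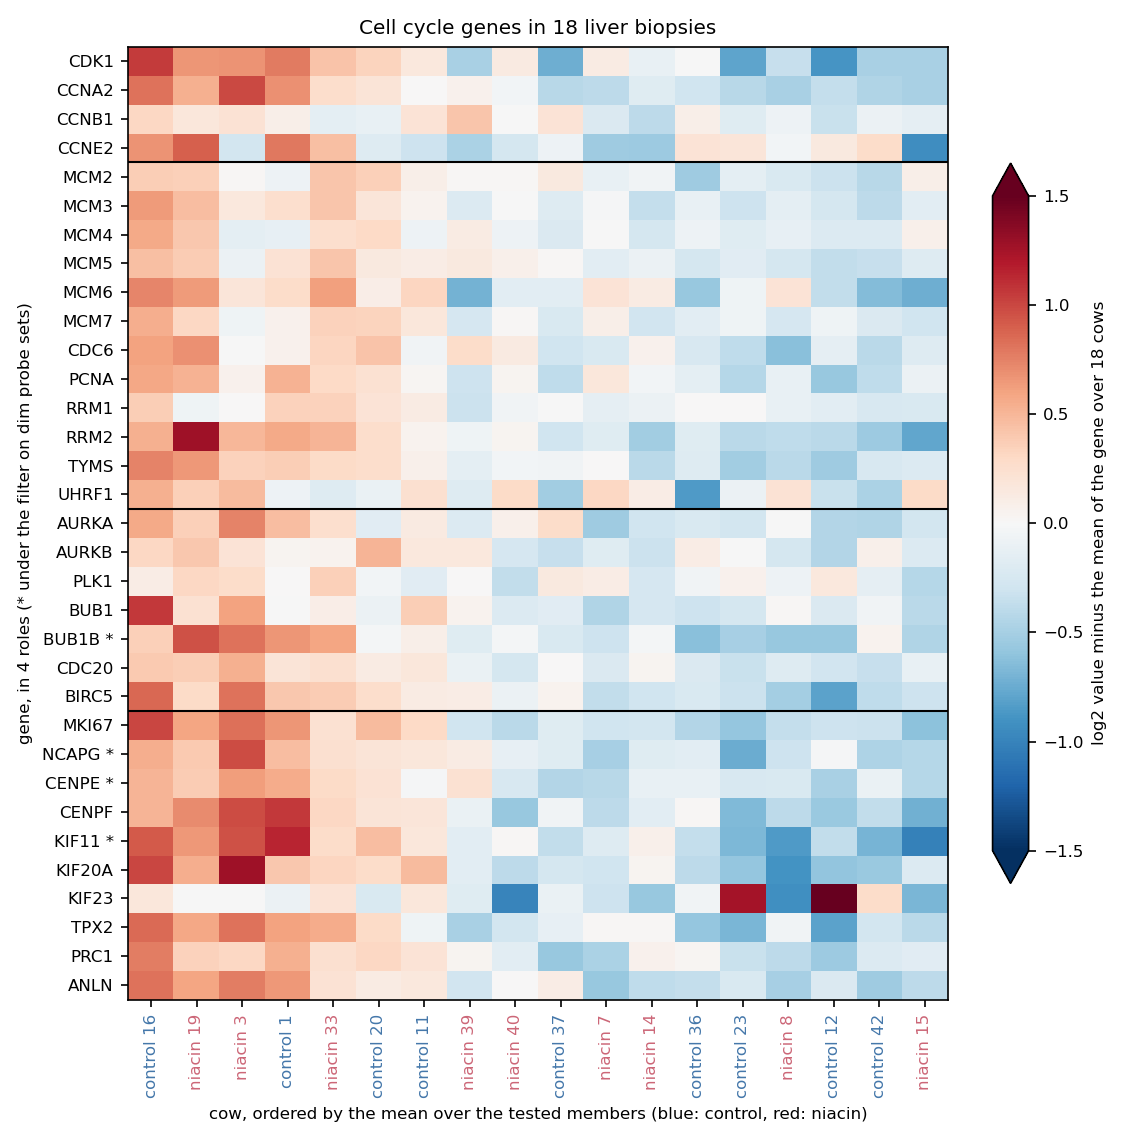
Log2 value of each of the 33 measured genes (rows, in 4 roles) in each of the 18 cows (columns, ordered by the mean over the 29 tested members), minus the mean of the gene; colours stop at 1.5 in either direction. Control 16, at the left, was above the gene's mean in all 29 tested members, most rows shade from red to blue across the cows, and KIF23 breaks the pattern in control 12 and control 23.

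Control 16 was the highest of the 18 cows in 16 of the 29 tested members and above the gene's own mean in all 29. Niacin 3 was highest in 4 (CCNA2, AURKA, CDC20 and KIF20A) and niacin 19 in 3 (CCNE2, CDC6 and RRM2). Niacin 33, control 1, control 12, control 20 and niacin 39 were highest in 1 or 2 each, so that 8 cows shared the highest places. At the other end, control 12 and niacin 15 were each lowest in 7 members.

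Members also varied more between cows than most probe sets. Their median SD, with each group centred on its mean, was 0.389 on the log2 scale against 0.200 over all 18250 tested probe sets, and 28 of 29 members exceeded the latter. Among the 29 tested members RRM1, the large subunit of ribonucleotide reductase, varied least (SD 0.197), and KIF23 varied most (0.625), followed by KIF20A (0.603) and CDK1 (0.595). KIF11, below the filter, had an SD of 0.660.

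The genes moved together across cows. Over the 406 pairs of tested members, the median Pearson correlation across 18 cows was 0.657 after each group was centred, with 94.6% of pairs above 0. Over all pairs of tested probe sets the median was -0.0008, with 49.9% above 0. It was 0.758 in control cows alone and 0.637 in niacin cows alone. A first principal component held 65.5% of the variance of the scaled members and a second 7.06%. All of these values come from the same 18 arrays and a shared normalization, and they are given as a description with no p-value.

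The correlation was lower within the 7 highest cows and within the other 11 than over all 18. Within the 7 cows the median over member pairs was 0.415, with 84.0% of pairs above 0. Within the 11 cows it was 0.0992, with 61.1% above 0, against 0.0008 over all pairs of probe sets in the same cows. These sets of cows were formed from the members' own mean, which narrows the range within each, and they are compared in nothing else.

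MKI67, the Ki-67 protein that coats mitotic chromosomes and is the common histological marker of proliferation, followed the rest most closely, with r = 0.962 with the mean of the other members. It was followed by TYMS (0.936), CCNA2 (0.935), MCM3 (0.928), ANLN (0.926), CDC20 (0.914) and RRM2 (0.912). In 27 of 29 members this correlation exceeded 0.5, a value that 2.89% of all tested probe sets reached with the members' mean. The dim genes followed it as well, KIF11 with 0.909, CENPE with 0.880, BUB1B with 0.879 and NCAPG with 0.860. Among pairs, CDC20 with KIF20A (0.952), CCNA2 with MKI67 (0.942) and CDK1 with PCNA (0.942) were the closest.

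The median was 0.635 over the 298 pairs of members of different roles and 0.749 over the 108 pairs of members of the same role. Within replication licensing and DNA synthesis the median was 0.747, within the mitotic kinases and checkpoint 0.610, within chromosome structure, spindle and cytokinesis 0.833, and within the cyclins and their kinase 0.519. The lowest correlations with the other members were those of KIF23 (-0.101), CCNB1 (0.491), UHRF1 (0.509), PLK1 (0.520) and CCNE2 (0.574). PLK1 had 0.032 in control and 0.817 in niacin cows, and UHRF1 had 0.764 in control and 0.0931 in niacin cows. The difference between groups was not tested for either gene.

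**Figure D2:**
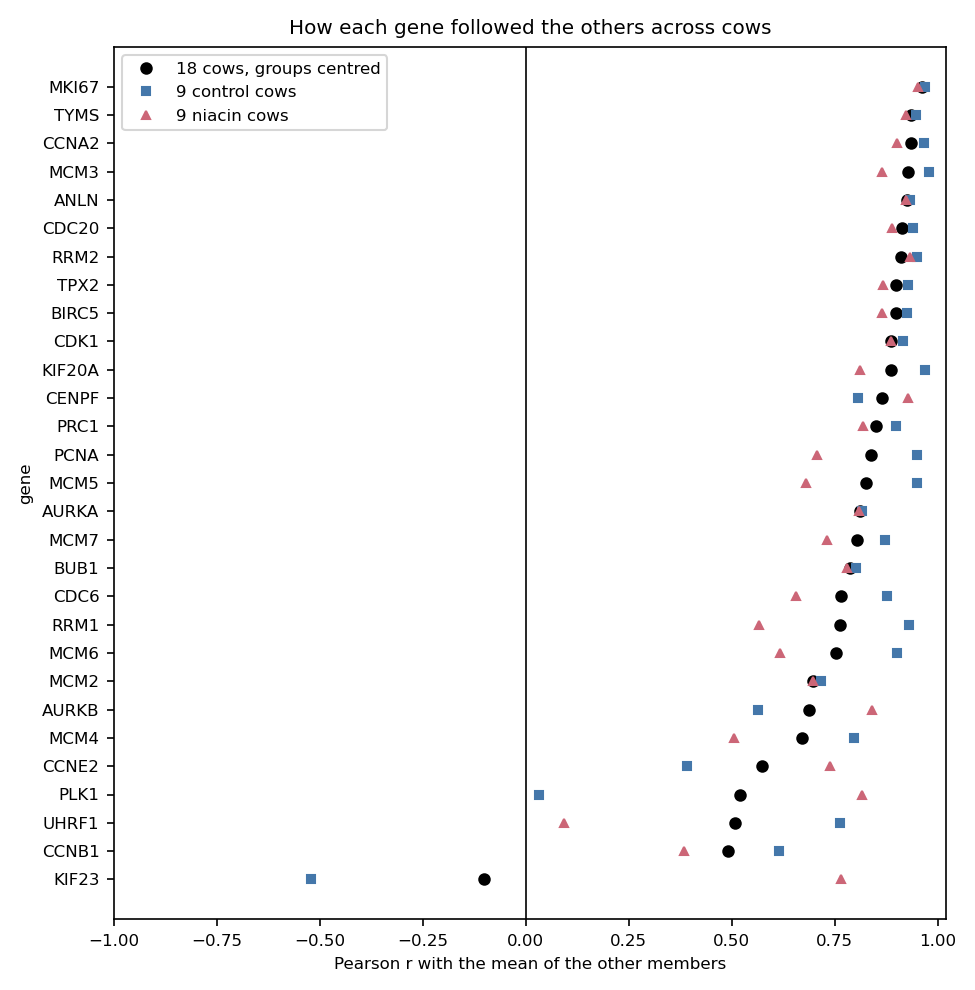
Pearson correlation of each of the 29 tested genes with the mean of the other members, over all 18 cows with groups centred (black circles), over the 9 control cows (blue squares) and over the 9 niacin cows (red triangles). MKI67 is at the top with 0.962 and KIF23 at the bottom with -0.101; PLK1, UHRF1 and KIF23 are far apart between the groups.

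Other genes of division ranked high by the same measure. Among the 100 probe sets most correlated with the members' mean, 21 were members and 17 were genes of the separate lists of other cell cycle genes. The 10 non-member genes ranked highest were MCM10 (0.946), DTL (0.942), CKAP2 (0.936), ECT2 (0.912), H2BC3 (0.910), KIF4A (0.908), GINS2 (0.906), RNASEH2A (0.904), SMC2 (0.895) and UBE2C (0.894), and 7 of the 10 were on those lists. MCM10 and GINS2 act at the replication fork, ECT2 in cytokinesis, SMC2 in condensin, and UBE2C in the ubiquitination of mitotic cyclins. By list, the median correlation with the members' mean was 0.719 for other mitosis genes, 0.501 for other replication genes, 0.231 for regulators of G1 and -0.0434 for inhibitors of division and p53 targets.

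Marker means of other cell types did not follow the members' mean closely in these cows. Its correlation with the hepatocyte marker mean was 0.355, with T and NK cells 0.257, with macrophages and monocytes 0.0363, with B and plasma cells -0.107, with endothelial cells -0.155, with erythroid cells -0.240 and with neutrophils -0.272. With stellate cells and fibroblasts it was -0.366 and with bile duct cells -0.386. After the mean of all leukocyte markers was removed by regression, the median correlation among member pairs was 0.681. The erythroid marker mean stood apart in niacin 8 at 6.77, where the next cow had 5.57, and niacin 8 ranked 15 of 18 in the members' mean. The stellate cell and fibroblast marker mean was highest in control 12 at 7.79, where the next cow had 7.06, and control 12 ranked 16. For KIF23 alone, the correlation with these marker means ran from -0.331 (hepatocytes) to 0.549 (B and plasma cells), with 0.450 for stellate cells and fibroblasts. A part of cell composition in KIF23 was not tested there.

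Whether niacin went with a different level of these genes was asked by comparing the 9 niacin with the 9 control cows. With limma, 0 of 29 tested members passed an adjusted p of 0.05, as did 0.0% of all 18250 tested probe sets, and the adjusted p of the members lay between 0.476 and 0.997. At an unadjusted p under 0.05, 1 member was higher with niacin (UHRF1) and 1 lower (KIF23), which is 6.90% of members. The background was 7.74% of all tested probe sets (3.34% higher and 4.41% lower), so the members' share was near it. The exact permutation test over all 48620 splits of the cows called the same 2 members at that threshold, against 7.53% of all tested probe sets. Under 0.01 there was 1 member, KIF23, where the background was 1.99%. Of the members 17 were above and 12 below 0, or 58.6% above against 53.8% of all tested probe sets. Their median log2 fold change was 0.03, against 0.01 over all tested.

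The mean over the tested members was 5.75 ± 0.32 in control and 5.74 ± 0.30 in niacin cows (SD, n = 9 each), a difference of -0.015. That difference was smaller than the spread between cows, and its sign depended on single cows, with 0.061 without control 16 and -0.074 without niacin 19. No tested member separated the groups, since 0.0% of all tested probe sets had groups without overlap. The 95% interval of a member's log2 fold change reached a median of 0.34 to either side, against 0.19 over all tested probe sets. These intervals are not adjusted for the number of probe sets, so differences above that size could be missed too. UHRF1 at 0.37 was not called after adjustment (limma adjusted p = 0.558). KIF23 at -0.77 was not called either (limma adjusted p = 0.476). The smallest difference that could be detected was not tested.

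**Figure D3:**
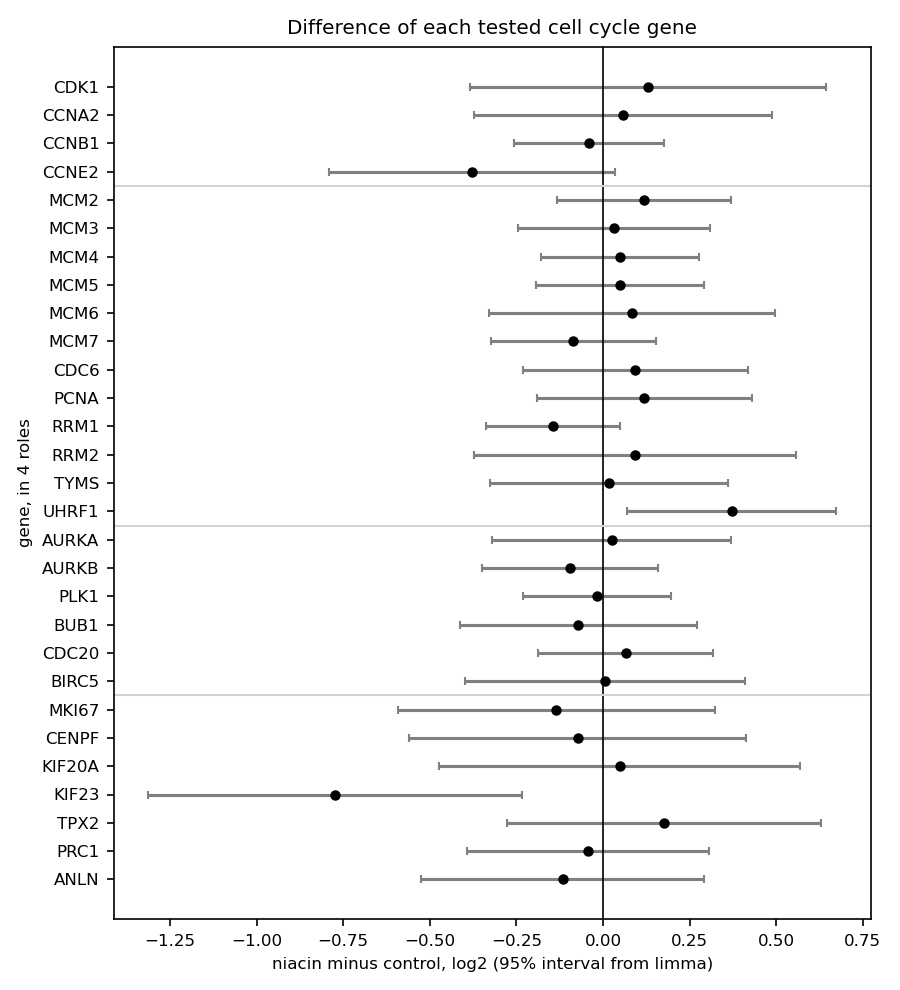
Niacin minus control on the log2 scale for each of the 29 tested genes (points, in 4 roles), with the 95% interval from limma (bars). The intervals of 27 genes include 0; those of UHRF1 (higher) and KIF23 (lower) do not, and neither passed after adjustment.

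Among the cyclins and their kinase, 0 of 4 tested genes had an unadjusted limma p under 0.05, against 7.74% of all tested probe sets. CCNE2, the cyclin that acts with CDK2 at entry into S phase, had control values with a lowest of 4.13, a median of 4.62 and a highest of 5.23, and niacin values of 3.51, 4.16 and 5.34. The groups overlapped, with 7 of 9 niacin cows below the control median and niacin 19 above every control cow. Its log2 fold change was -0.38 ± 0.20 (SE; limma adjusted p = 0.666; exact permutation p = 0.110). Without control 11, niacin 19 or niacin 33 its unadjusted p passed 0.05.

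CDK1, the kinase that drives entry into mitosis, had control values of 3.46, 4.34 and 5.40 (lowest, median, highest) and niacin values of 3.86, 4.47 and 5.02. Control cows covered the wider range and enclosed all niacin cows. Its log2 fold change was 0.13 with a 95% interval of -0.38 to 0.64, or 0.027 without control 12 and 0.199 without niacin 15. CDK1 still passed the filter in 9 of the 18 fits that each left out a single cow. CCNA2, cyclin A2, which acts in S phase and at entry into mitosis, had control values of 5.03, 5.18 and 6.29 and niacin values of 4.99, 5.44 and 6.47. Its highest cows were niacin 3 and control 16, and its log2 fold change was 0.06 (-0.37 to 0.49). CCNB1, cyclin B1, differed by -0.04 (-0.26 to 0.18).

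Among the 12 genes of replication licensing and DNA synthesis, 1 was higher at an unadjusted p under 0.05, against 3.34% of all tested probe sets, and 10 were above and 2 below 0 (83.3% above, against 53.8% of all tested). The share above 0 was 50.0% in the cyclins and in the mitotic kinases, and 28.6% in chromosome structure, spindle and cytokinesis. Of the 21 genes tested in the separate list of other replication genes, 10 were above and 11 below 0 (47.6% above). Members of a role move together across cows, so these counts are not of independent genes. UHRF1, which binds hemimethylated DNA and brings the methyltransferase DNMT1 to it, had control values with a lowest of 5.51, a median of 6.26 and a highest of 6.89. Niacin values were 6.17, 6.65 and 6.84. Of the 9 niacin cows 7 lay above the control median, yet the single highest cow was control 16. The means were 6.55 ± 0.24 in niacin and 6.17 ± 0.41 in control cows (SD, n = 9 each), or 1.29-fold higher with niacin. The log2 fold change was 0.37 ± 0.15 (SE; limma p = 0.0180, adjusted p = 0.558; exact permutation p = 0.0337). With the leukocyte marker mean as a covariate it was 0.32 (limma adjusted p = 0.999), and with array weights 0.31 (limma adjusted p = 0.656), and under neither was the unadjusted p below 0.05. The leukocyte marker mean itself differed between the groups, at 6.25 ± 0.12 in control and 6.38 ± 0.10 in niacin cows (SD, n = 9 each). The fit with this covariate therefore cannot fully separate it from niacin.

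RRM1 had control values of 7.39, 7.64 and 8.00 (lowest, median, highest) and niacin values of 7.31, 7.55 and 7.98. Niacin 33 alone of the niacin cows lay above the control median. Its log2 fold change was -0.14 ± 0.09 (SE; limma adjusted p = 0.744; exact permutation p = 0.143), and without niacin 33 it was -0.20 with an unadjusted p under 0.05. RRM2, the small subunit of the same enzyme, differed by 0.09 (95% interval -0.37 to 0.56) and was highest in niacin 19 at 7.13.

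TYMS, thymidylate synthase, had control values of 6.03, 6.51 and 7.30 and niacin values of 6.15, 6.52 and 7.21. The medians were nearly equal, and the log2 fold change was 0.02 (-0.33 to 0.36). PCNA, the sliding clamp of DNA polymerases, had control values of 6.70, 7.12 and 7.85 and niacin values of 6.95, 7.31 and 7.79. Although 8 of 9 niacin cows lay above the control median of PCNA, its log2 fold change was 0.12 with a 95% interval of -0.19 to 0.43, or 0.056 without control 12 and 0.199 without control 16. Its highest cows were control 16, control 1 and niacin 19.

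The MCM helicase subunits gave log2 fold changes of 0.12 for MCM2, 0.03 for MCM3, 0.05 for MCM4, 0.05 for MCM5, 0.08 for MCM6 and -0.09 for MCM7, and every interval included 0. Control 16 was the highest of all cows in MCM3, MCM4, MCM5, MCM6 and MCM7, and niacin 33 in MCM2. CDC6, which loads the helicase, differed by 0.09 (95% interval -0.23 to 0.42).

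Among the mitotic kinases, the spindle checkpoint and the genes of anaphase, 0 of 6 tested genes had an unadjusted p under 0.05 by limma. The smallest was 0.448, and the share under 0.05 was 7.74% over all tested probe sets. AURKB, the Aurora kinase of the chromosomal passenger complex, had control values of 4.12, 4.63 and 5.07 and niacin values of 4.23, 4.37 and 4.96. Its groups overlapped over most of their range, and its log2 fold change was -0.09 (95% interval -0.35 to 0.16), or -0.15 without control 12 and -0.04 without control 20. CDC20, which activates the anaphase-promoting complex, had control values of 4.52, 4.87 and 5.25 and niacin values of 4.60, 4.76 and 5.39. Its highest cows were niacin 3 and control 16, and it differed by 0.07 (-0.19 to 0.32), or 0.0036 without niacin 3 and 0.118 without control 16. BIRC5 (survivin) and AURKA differed by 0.01 and 0.03, and PLK1 and the checkpoint kinase BUB1 by -0.02 and -0.07.

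Among the 7 tested genes of chromosome structure, spindle and cytokinesis, 1 was lower at an unadjusted p under 0.05, against 4.41% of all tested probe sets, and 0 higher. MKI67 had control values of 5.29, 5.69 and 6.87 and niacin values of 5.25, 5.57 and 6.70. In each group a few cows stood well above the rest, namely control 16, 1, 20 and 11 and niacin 3, 19 and 33. Its log2 fold change was -0.13 ± 0.22 (SE; limma adjusted p = 0.926), or -0.02 without control 16 and -0.25 without niacin 3. TPX2, which nucleates spindle microtubules and activates Aurora A, had control values of 4.73, 5.41 and 6.38 and niacin values of 5.04, 5.55 and 6.35, and differed by 0.18 (95% interval -0.28 to 0.63), or 0.084 without niacin 3 and 0.293 without control 16. CENPF, KIF20A, PRC1 and ANLN, which act at kinetochores, in the central spindle and in the contractile ring, differed by -0.07, 0.05, -0.04 and -0.12, and every interval included 0.

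**Figure D4:**
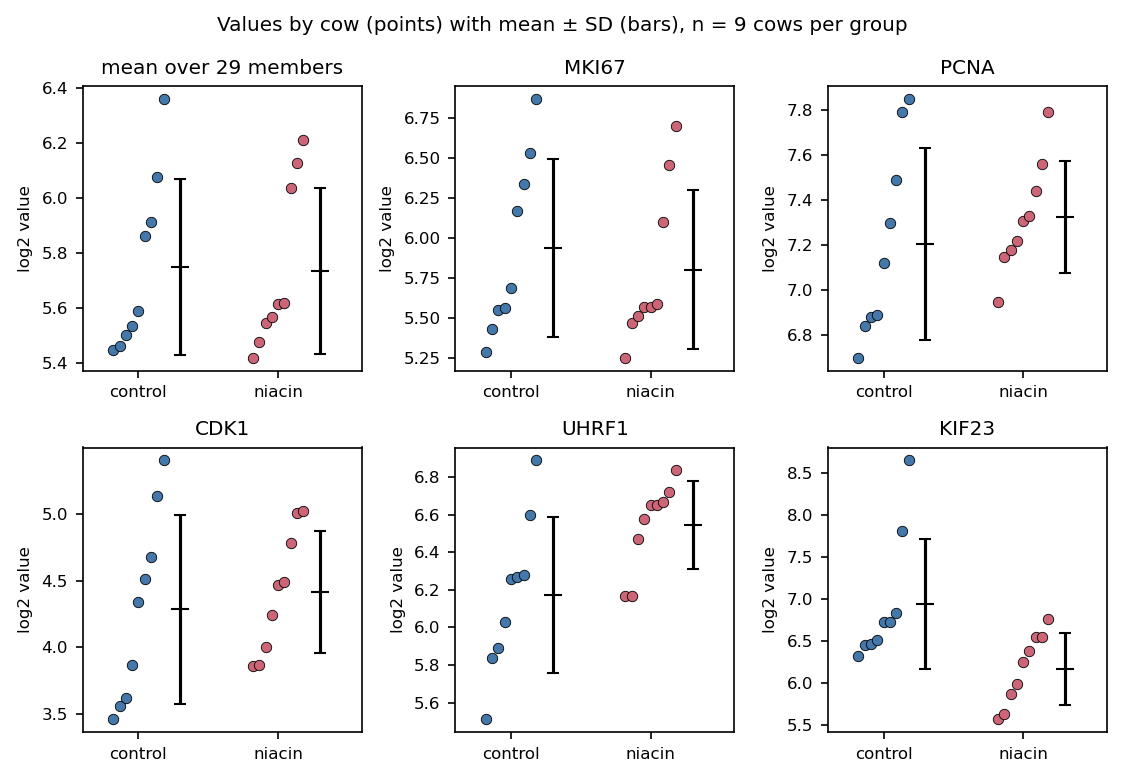
Log2 values of single cows (points, sorted within each group of 9) with mean ± SD (bars) for the mean over the 29 tested members and for 5 genes. The groups overlap in every panel, the members' mean and MKI67 show a few high cows in both groups, UHRF1 lies higher in most niacin cows, and control 12 (8.65) and control 23 (7.81) stand apart in KIF23.

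KIF23, a kinesin of the centralspindlin complex that acts in cytokinesis, gave the largest difference of the set and did not behave like the rest of it. Control values had a lowest of 6.33, a median of 6.73 and a highest of 8.65, and niacin values were 5.57, 6.25 and 6.77. Of the niacin cows 8 of 9 lay below the control median, and control 12 (8.65) and control 23 (7.81) stood far above all others. The log2 fold change was -0.77 ± 0.26 (SE; limma p = 0.00706, adjusted p = 0.476; exact permutation p = 0.00835), or 0.585 of the control level. Without control 12 it was -0.56, and without both cows, a setting chosen after the values were seen, -0.41 (limma adjusted p = 0.699). The control mean was 6.95 ± 0.77 (SD, n = 9) and 6.58 ± 0.19 over the other 7 control cows.

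Control 12 and control 23 were low in most other members, with means over the tested members of 5.46 and 5.50, and lay above the gene's own mean in 3 and 4 of the 29 (KIF23 included). The correlation of KIF23 with the other members was -0.521 in control and 0.766 in niacin cows. Without control 12 and control 23 it was 0.500 over the other 16 cows, but -0.0567 over the 7 control cows among them, and the difference between groups was not tested. Of all tested probe sets, the one closest to KIF23 across 18 cows was that of PAQR5, a membrane progesterone receptor, with r = 0.889 and a Spearman rho of 0.810. Other genes came close behind, with r = 0.882 for DGKG, 0.846 for KCNK17, 0.844 for NBEA and 0.841 for GARRE1. PAQR5 was highest in the same cows, at 8.75 in control 12 and 8.22 in control 23, and lay between 6.52 and 7.58 in the other 16, among which r was 0.603 and rho 0.474. Its log2 fold change was -0.45 ± 0.19 (SE; limma adjusted p = 0.593; exact permutation p = 0.0427).

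In the RefSeq gene table (assembly ARS-UCD2.0) the spans of KIF23 and PAQR5 overlap. No overlap with KIF23 was listed for DGKG, KCNK17, NBEA or GARRE1. Their correlations with KIF23 were taken over all 18 cows and were not computed without control 12 and control 23. A part of the overlap in the values of KIF23 was not tested. Where the probes of either gene lie was not examined here, so the values of KIF23 are uncertain as a measure of KIF23 alone. Of the 33 measured members, 9 overlap another protein-coding gene in that table, and outside KIF23 the correlations with overlapping genes ran from -0.518 (NCAPG, below the filter, with DCAF16) to 0.446 (TYMS with ENOSF1). The pattern of KIF23 was looked into after its values were seen. Without it the difference in the members' mean was 0.012 and the median correlation over pairs 0.673.

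**Figure D5:**
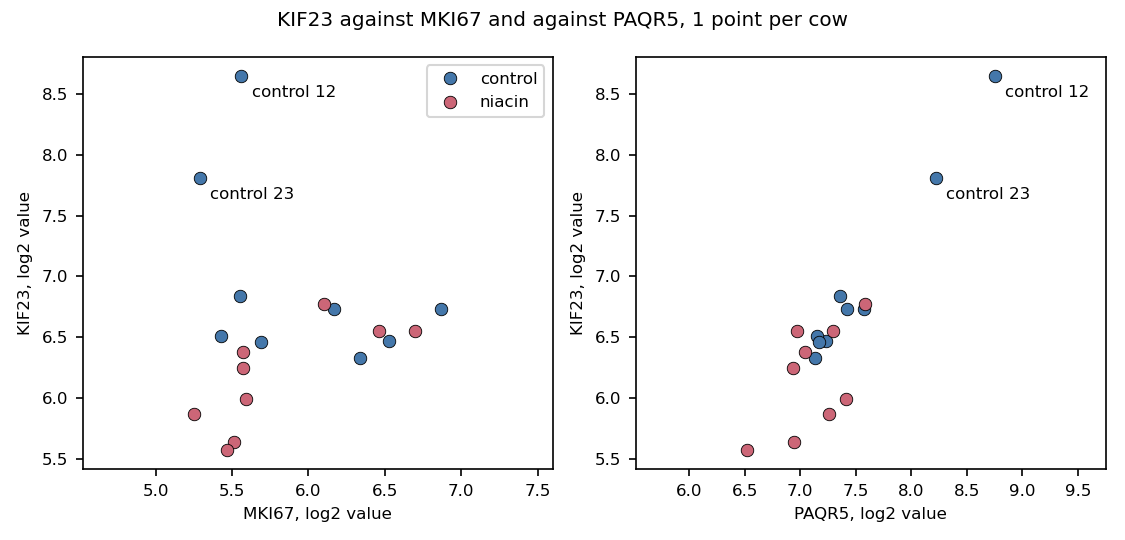
KIF23 (vertical axis, log2 value) against MKI67 (left) and against PAQR5 (right, both log2 values), with 1 point per cow, control in blue and niacin in red. Control 12 and control 23 are high in KIF23 and PAQR5 and low in MKI67.

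Other genes of the cell cycle gave no larger share of differences than the members. Of 102 listed genes 97 were measured and 75 passed the filter. At an unadjusted limma p under 0.05, 1 was higher and 0 lower with niacin, or 1.33% against 7.74% of all tested probe sets. The adjusted p lay between 0.643 and 0.999. CDC25B, a phosphatase that activates cyclin-dependent kinases, was the gene concerned, at a log2 fold change of 0.19 (limma p = 0.0459, exact permutation p = 0.0501). The other genes with the smallest p of their lists were LIN9 (-0.16), a subunit of the DREAM and MuvB complexes that act on cell cycle promoters, MDM2 (-0.21), the ubiquitin ligase of p53, and CDKN2B (0.11), an inhibitor of CDK4 and CDK6. PRIM1 (-0.18), a primase subunit, ORC1 (0.15), of the origin recognition complex, NCAPD2 (-0.25), of condensin, and CENPU (-0.21), a kinetochore protein, completed them. Medians of the lists were 0.02 for regulators of G1, 0.04 for inhibitors and p53 targets, -0.01 for replication and -0.02 for mitosis.

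In the same comparison, several lists of cell type markers were called at an unadjusted limma p under 0.05 in larger shares than the members. All tested probe sets gave 3.34% higher and 4.41% lower. Of the macrophage and monocyte markers 4 of 11 were higher, of the T and NK cell markers 3 of 12, of the neutrophil markers 2 of 10 and of the B and plasma cell markers 1 of 8. Of the hepatocyte markers 3 of 12 were lower. Erythroid, endothelial, stellate cell and bile duct markers gave 0. The mean over the leukocyte markers of 4 lists ran from 6.04 to 6.38 in control and from 6.22 to 6.57 in niacin cows. Its group means were 6.25 in control and 6.38 in niacin cows. The part of these cells in the values of the members was not tested beyond the fit with the leukocyte marker mean as a covariate, in which 1 member (KIF23) had an unadjusted p under 0.05, beside 4.16% of all tested probe sets.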

How the data were processed

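The deposited values were log2 expression per probe set, made by the authors with Affymetrix Expression Console and RMA per the submitters' processing notes (no version is given in these sources). RMA quantile normalization hides a shift common to most genes. Members and lists were chosen with earlier results of these data known. Groups came from the sample titles. Cow numbers do not overlap between the groups, and the labels give neither a hybridisation batch nor RNA integrity per cow. They give a mean RNA integrity number of 7.2 ± 0.5 (SD). Per the labels the study had 22 cows with RNA from 11 per group, of which 2 per group were left out of the arrays. Of 24333 probe sets, 18457 carried 1 symbol. Probe sets with a mean over 18 arrays in the lowest 25% were left out, and 18250 were fitted with limma 3.58.1 in R 4.3.3 (lmFit, eBayes, no covariate, Benjamini-Hochberg over all 18250, two-sided). The fit was tested on simulated data. Exact permutation p-values (two-sided) used all 48620 splits. Correlations used values centred within each group. Members were named by a rule: in each role the 2 with the smallest p and the 1 most correlated with the others, beside MKI67, TOP2A, PCNA and CDK1. In the lists of other cell cycle genes it was the 2 with the smallest p. Promoter motifs were planned and not analysed here. The number of arrays limits the precision. Alternatives were other filters, variance models, array weights, normalizations, a leukocyte covariate, other summaries and leaving out each array.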

Additional observations from a re-analysis of the deposited data

Results flagged for a closer look

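Dixon's test at its 95% critical value was applied to the 33 measured genes and the members' mean in each group, which made 68 sets of 9 cows. It marked 2 of them, where about 1 in 20 would be marked by chance. RRM1 in niacin 33 was 7.98, and the second highest niacin cow had 7.64. BUB1 in control 16 was 5.68, and the second highest control cow had 4.98. KIF23 was not marked, since control 12 and control 23 were both high.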

How the results depend on the processing

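No tested member passed an adjusted p of 0.05 under any setting run, and the smallest adjusted p was 0.317 (KIF23 without control 20). The count at an unadjusted p under 0.05, 2, was 1 with array weights, with the leukocyte covariate and at a threshold of 0.01, each time KIF23, and 2 to 4 on leaving out 1 array (4 without niacin 33). Of all tested probe sets the share was 7.74% in the main comparison and with array weights, 4.16% with the leukocyte covariate, 1.99% at 0.01 and 7.77% without niacin 33. The sign of the log2 fold change held under every setting run in 11 of 29 members, and 68 of 760 alternative values had the opposite sign. On leaving out 1 array it turned in 13, which ranged from -0.0622 to 0.163 for CCNA2, -0.0943 to 0.0069 for CCNB1, -0.0246 to 0.113 for MCM3, -0.0001 to 0.11 for MCM5, -0.0612 to 0.195 for RRM2, -0.0636 to 0.11 for TYMS, -0.0665 to 0.0983 for AURKA, -0.0629 to 0.0346 for PLK1, -0.15 to 0.0574 for BUB1, -0.0949 to 0.11 for BIRC5, -0.20 to 0.055 for CENPF, -0.11 to 0.18 for KIF20A and -0.12 to 0.0515 for PRC1. With array weights TYMS was at -0.0133, PLK1 at 0.0206 and BIRC5 at -0.028. With the leukocyte covariate CCNB1 was at 0.0192, MCM6 at -0.0782, CENPF at 0.06 and PRC1 at 0.0809. Without control 12 and control 23 together, 2 cows picked after the data were seen for their high KIF23, CDK1 was at -0.0916, CCNA2 at -0.0457, MCM3 at -0.047, MCM5 at -0.0222, PCNA at -0.0059, RRM2 at -0.0106, TYMS at -0.1308, AURKA at -0.0724, PLK1 at 0.0117, CDC20 at -0.0141, BIRC5 at -0.1537, KIF20A at -0.113 and TPX2 at -0.0108. The cause was not tested. The difference of the members' mean lay between -0.0914 and 0.0612, and the median correlation over member pairs between 0.588 (without control 16) and 0.699 (without niacin 3), apart from 0.415 and 0.0992 within the cows above and below the widest gap, 2 settings chosen after the data were seen. The setting without KIF23 was chosen then too. No paired analysis was possible because the cow numbers of the groups do not overlap.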
